A study of Mus musculus with 4 samples.

Results

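The genes described here are 9 genes of bone morphogenetic protein (BMP) signalling: the antagonist Grem1, the ligands Bmp2, Bmp4 and Bmp7, and the target genes Id1, Id2, Id3, Smad6 and Smad7. They are 9 of the 55421 genes in the deposited count table and were taken by gene symbol. Each symbol occurred once. The genes were chosen with their behaviour in these libraries known, and Grem1 was picked as 1 of the strongest falls, so their differences between groups are described without p-values.

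RNA-seq was performed on cultures of spermatogonial stem cells (SSCs) with a CD1 background, which the study derived from the testes of mouse pups and grew on irradiated mouse embryonic fibroblast (MEF) feeders of outbred CF1 mice. The labels give bFGF and GDNF at 10 ng/ml each for the cultures, whereas the study's list of media holds a higher GDNF concentration. The Veh group stayed in complete SSC medium. The NRRA group received nutrient restriction plus retinoic acid (RA): most of the complete medium was exchanged for a balanced salt solution that lacks amino acids, and RA was added, for about 2 days. By the study's list of media, the exchange also diluted bFGF and GDNF, whereas the labels give the same concentrations for both groups. Each group had 2 libraries, and their mice and culture dishes are not named in the labels. Per the study, replicates in its sequencing experiments were biologically independent. P-values measure the spread between these libraries, which edgeR estimates for each gene with help from all genes tested. No library here lacked nutrients alone or received RA alone. The effects of the salt solution, the diluted growth factors and RA therefore cannot be told apart. The study also sequenced cultures with each treatment alone in another mouse background, which are not among these libraries.

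BMPs are secreted dimers that bind type I and type II receptor kinases. The receptors phosphorylate SMAD1, SMAD5 and SMAD9, which enter the nucleus with SMAD4 and induce target genes. The Id genes are classical direct targets, and the ID proteins hold back differentiation in many lineages by binding E proteins, the partners of basic helix-loop-helix transcription factors. Smad6 and Smad7 are also induced and encode inhibitory SMADs that feed back on the receptors. Gremlin 1, the product of Grem1, binds BMP2, BMP4 and BMP7 outside the cell and keeps them from their receptors. In the testis, BMP4 is known to promote spermatogonial differentiation.

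The libraries held between 28022265 and 31604769 counts. Levels are given in CPM, a count over its library's TMM-scaled total. The floor was set at 3 counts, which is 0.092 to 0.11 CPM depending on the library, and covers counting error only. Of the 7 germ cell markers, 6 had 2871 or more counts in every library, and Dppa3 had 230 and 244 counts in Veh against 4 and 0 in NRRA. Ddx4, an RNA helicase of germ cells, was counted 7403 and 7964 times in Veh against 8822 and 8382 times in NRRA. The 15 fibroblast feeder markers summed to 3917 and 3849 CPM in Veh and to 3438 and 3255 CPM in NRRA. Fibroblast marker RNA was thus present in every library, and whether all of it came from the feeders was not tested. The study assigned cells to the feeders by S100a4, which had 11 to 29 counts a library here. Gm42674 overlaps 51.7% of the exon bases of S100a4. The 11 markers of testis somatic cells summed to 128 and 144 CPM in Veh and to 88.0 and 95.6 CPM in NRRA. Most of this came from Acta2, a smooth muscle actin that fibroblasts also express, with 1967 to 2782 counts a library, and from Sox9, with 284 to 874. Wt1 had 178 to 233 counts a library and Star 189 to 286, whereas Amh, Insl3, Hsd3b1 and Cldn11 had between 0 and 13. Of the exon bases of Insl3, 64.8% overlap Jak3. The label spermatogonia therefore covers a mixture, and in it a smaller share of cells of a type and less RNA per cell cannot be told apart. Stra8, which RA induces directly, rose from 9.84 to 1856 CPM in the libraries labelled NRRA (edgeR adjusted p = 1.33e-37).

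All 9 genes passed the filter on low counts. Grem1, Bmp2, Id1, Id3 and Smad7 were called lower and Smad6 higher in NRRA, and Bmp4, Bmp7 and Id2 were not called. Of all 20232 genes tested, 28.4% were called lower and 27.9% higher, 56.4% in either direction (quasi-likelihood test in edgeR, adjusted p under 0.05 after Benjamini-Hochberg). Grem1, Bmp2 and Smad7 were at least 2-fold lower, as were 7.02% of all genes tested. Nothing is read from the count of 6 calls among 9, because the genes were chosen on this comparison. The NRRA libraries lay below both Veh libraries for 7 genes, above them for 1 and overlapped with them for 1. Over all genes tested, the groups did not overlap for 76.7%, with NRRA below for 38.6% and above for 38.1%. The median log2 fold change, NRRA over Veh, was -0.53 for the 9 genes and 0.0003 for all genes.

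**Figure D1:**
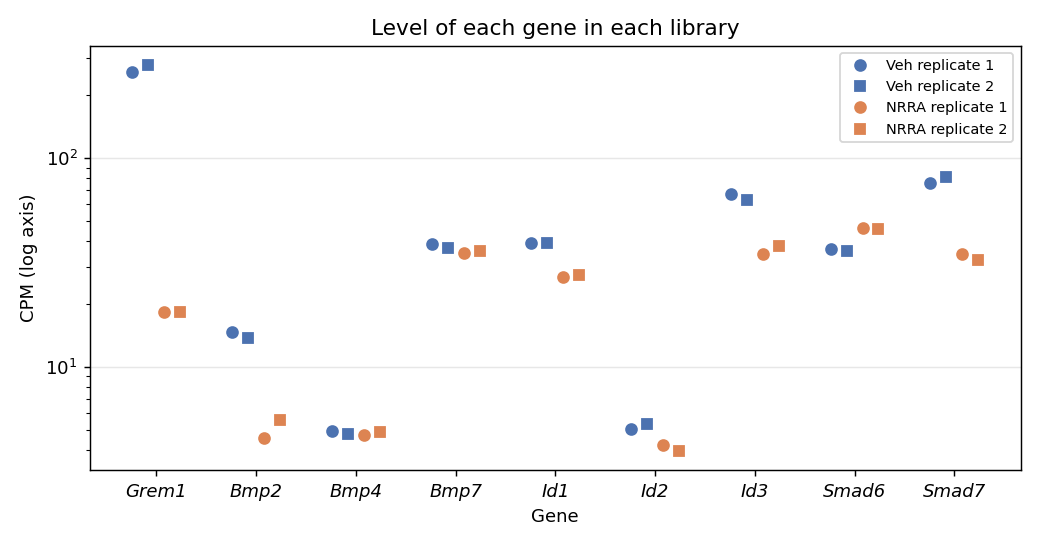
Level of each of the 9 genes in each library, in CPM on a log axis. Blue marks are the 2 Veh libraries and orange marks the 2 NRRA libraries. Grem1 stands at 259 and 278 CPM in Veh against 18.3 and 18.4 CPM in NRRA, whereas the 4 values of Bmp4 lie between 4.72 and 4.90 CPM.

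Grem1 lies on the minus strand of chromosome 2 (ENSMUSG00000074934, GRCm38, 113746164 to 113758646). It was counted 7030 and 8289 times in the Veh libraries and 598 and 554 times in the NRRA libraries. Its level was 259 and 278 CPM in Veh and 18.3 and 18.4 CPM in NRRA. The groups stood far apart, and the NRRA libraries were nearly equal. The Veh mean of 269 ± 13.7 CPM was 14.6 times the NRRA mean of 18.4 ± 0.0287 CPM (SD, n = 2 each). With 2 libraries, an SD this small is no measure of precision. The log2 fold change was -3.87 (SE 0.046). Among the 11324 genes whose log2 CPM averaged 3 or more, it ranked 10th from the lowest log2 fold change. Its neighbours in that order were Sall3 at -3.88 and Rspo2 at -3.86. Over all 20232 genes tested, Grem1 ranked 84th from the lowest, within the lowest 0.415%. Of its longest transcript, 4.2% is near-identical to stretches of other genes, and no annotated exon overlaps it.

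Per kilobase of exon, Grem1 was the most abundant of the 9 genes in Veh, at 64.8 ± 3.30 CPM per kb, and the sixth in NRRA, at 4.43 ± 0.00691 CPM per kb (SD, n = 2). This level placed it above 96.9% of the tested genes in Veh and above 52.4% in NRRA.

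The genes whose course over the 4 libraries was most like that of Grem1 were Tril, Rspo2, Adgrg1, Sall3 and Nxph4. Likeness was the Euclidean distance between log2 CPM values centred on each gene's mean, over 4 libraries and 11317 candidate genes, and ranged from 0.123 for Tril to 0.198 for Nxph4. Their log2 fold changes lay between -4.01 for Adgrg1 and -3.69 for Nxph4. Rspo2 encodes a secreted enhancer of WNT signalling, and Sall3 a zinc finger transcription factor. With 2 libraries a group, this order rests almost wholly on the size of the difference between groups.

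Fibroblasts are known to express Grem1, and the levels of the feeder markers were set beside it. Of the 15 fibroblast feeder markers, 12 fell and 2 rose in NRRA, with a median log2 fold change of -0.25. Pdgfra, a PDGF receptor with 6.2% of its exon bases overlapped on the opposite strand, had the highest value (0.98, adjusted p = 6.35e-13), and Lum, a collagen-binding proteoglycan, the lowest (-1.43, adjusted p = 4.41e-10). None of the 15 was at 0 in any library. The summed feeder level differed by -0.215 on the log2 scale, against -3.87 for Grem1. Grem1 counts equalled 6.61% and 7.23% of the summed feeder marker counts in Veh and 0.533% and 0.565% in NRRA. They equalled 16.6% and 17.1% of the summed germ cell marker counts in Veh and 1.07% and 1.08% in NRRA. Grem1 was thus 12.6-fold lower relative to the feeder markers, 15.7-fold lower relative to the germ cell markers, 5.8-fold lower relative to the undifferentiated spermatogonia markers and 9.89-fold lower relative to the testis somatic cell markers. Relative to the differentiating spermatogonia markers, it was 146-fold lower. Undifferentiated spermatogonia markers moved in the same direction: 9 of 10 fell, Zbtb16 (-2.43), Id4 (-3.32) and Lhx1 (-4.27) among them, and Sall4 rose (0.84). Their median was -2.43, and their sum was 1953 and 1946 CPM in Veh and 773 CPM in both NRRA libraries. Lhx1 and Nanos2, the latter with 0 and 3 counts in NRRA, fell further than Grem1, and the others of this list did not. The 5 differentiating spermatogonia markers summed to 275 and 278 CPM in Veh and to 2753 and 2764 CPM in NRRA, and 4 of them rose. Which cells held the Grem1 RNA was not tested.

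The 250 bases before the annotated start are shown for Grem1, the lowest of the 9 in fold change, and Smad6, the gene that was higher. Both come from RefSeq on GRCm38.p6 and read 5′ to 3′ on the gene's strand. The Grem1 window is chr2:113758649-113758898 and the Smad6 window chr9:64022060-64022309, both on the minus strand, and no annotated exon overlaps them. Capitals mark GGCGCC and CAGAC, letters that SMAD proteins are known to bind, and AGGTCA, the repeated unit of RA receptor sites, each on either strand (GTCTG and TGACCT in reverse).
Grem1: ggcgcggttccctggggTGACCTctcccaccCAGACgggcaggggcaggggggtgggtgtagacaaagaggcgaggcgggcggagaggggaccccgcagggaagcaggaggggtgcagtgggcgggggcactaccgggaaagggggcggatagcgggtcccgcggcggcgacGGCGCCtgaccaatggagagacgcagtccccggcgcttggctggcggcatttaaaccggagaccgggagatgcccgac
Smad6: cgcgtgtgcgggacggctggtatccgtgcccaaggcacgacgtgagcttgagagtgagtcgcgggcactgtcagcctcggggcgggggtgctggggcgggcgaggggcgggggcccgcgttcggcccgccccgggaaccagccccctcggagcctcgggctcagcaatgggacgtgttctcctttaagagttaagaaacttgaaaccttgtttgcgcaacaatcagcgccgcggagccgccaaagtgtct

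The Grem1 window held 1 GGCGCC, 1 CAGAC and 1 AGGTCA (as TGACCT), and the Smad6 window held none of them. Of 32851 promoter windows of this length in the mouse table, 9.59% held GGCGCC, 42.2% CAGAC and 14.0% AGGTCA. Promoter entries matched 5 of the 9 genes: Bmp4, Grem1, Id2, Id3 and Smad6. The windows of Id2 (1 GGCGCC) and Id3 (2 CAGAC) overlap annotated exons over 161 and 250 bases, and that of Bmp4 held none of the letters. The pair of AGGTCA spaced by 5 bases occurred in 0.00913% of windows and in none of these 5. A match is a description of the letters and not a binding site.

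Grem1 belongs to a larger group of extracellular BMP antagonists and modulators, of which 17 others were analysed and 15 passed the filter on low counts. Of these, 9 fell and 4 rose in NRRA, with a median log2 fold change of -0.50 beside 0.0003 for all genes. Chrd, which encodes chordin, a binder of BMP2 and BMP4, fell from 24.0 and 22.9 CPM in Veh to 4.11 and 4.35 CPM in NRRA (log2 fold change -2.47, SE 0.11, adjusted p = 1.31e-16). Fst, which encodes follistatin, an antagonist mainly of activin, fell from 28.9 and 29.5 to 9.11 and 8.86 CPM (-1.70, SE 0.084, adjusted p = 2.18e-15). Neither gene overlapped between groups.

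The antagonists did not all move down. Chrdl1, a chordin-like antagonist, rose from 1.03 and 1.78 CPM to 9.23 and 8.10 CPM (log2 fold change 2.61, SE 0.19, adjusted p = 8.32e-12). Its relative Chrdl2 rose from 1.51 and 1.71 to 3.13 and 4.05 CPM (1.15, SE 0.22, adjusted p = 7.58e-05). Crim1, a membrane-bound protein with chordin-like repeats, rose from 87.1 and 89.2 to 140 and 144 CPM (0.69, SE 0.037, adjusted p = 9.6e-15). Fstl1, a secreted follistatin-like glycoprotein, had the highest level per length of the list and fell from 94.5 to 53.3 CPM per kb (-0.83, SE 0.027, adjusted p = 4.32e-19). Nog, which encodes noggin, was near the floor, with 19 and 23 counts in Veh against 7 and 13 in NRRA. Its call (-1.19, adjusted p = 0.0366) was lost under 6 of the 10 alternatives that tested it, leaving out Veh replicate 1, Veh replicate 2 or NRRA replicate 1 among them (adjusted p = 0.0962, 0.186 and 0.327). Among the smaller changes, Nbl1, a DAN family antagonist, fell from 34.4 to 24.3 CPM (adjusted p = 4.62e-07). Bmp1, the protease that cleaves chordin, fell from 154 to 140 CPM (adjusted p = 0.000683). Twsg1, a chordin cofactor, rose from 89.9 to 103 CPM (adjusted p = 0.00011). Bmper (-0.69), Dand5 (-0.60) and Kcp (-0.44) were also called lower (edgeR adjusted p = 8.28e-05, 0.00167 and 2.01e-06). The call of Dand5 was lost without NRRA replicate 2. The call of Bmp1 was lost with scaling to library size only (adjusted p = 0.202).

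Of the summed level per kb of these 17 genes and Grem1, Grem1 made up 25.5% ± 0.683 in Veh and 2.99% ± 0.0388 in NRRA (SD, n = 2).

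**Figure D2:**
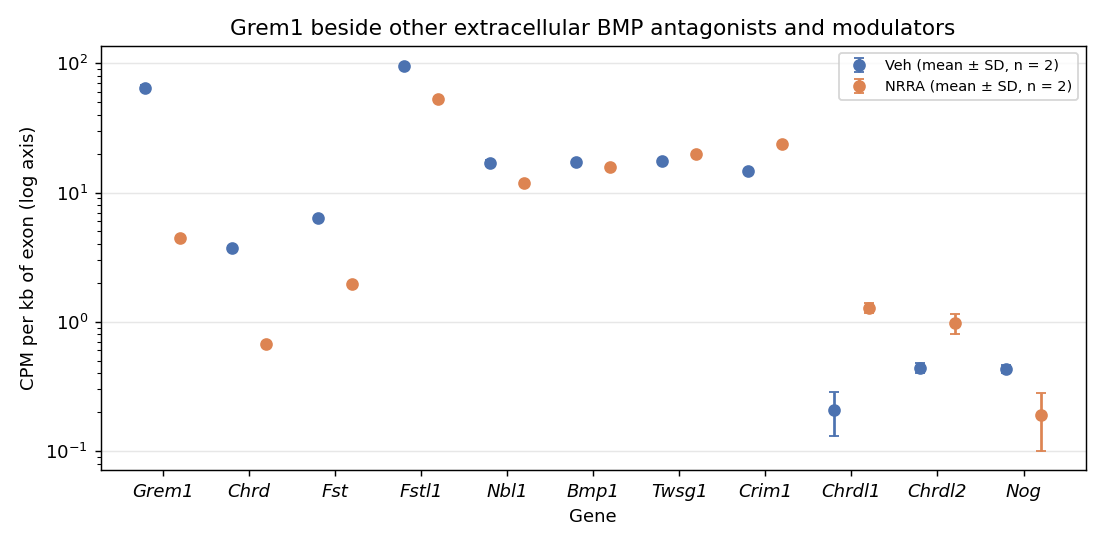
Level of Grem1 and of 10 of the other antagonists and modulators named in the text, in CPM per kb of exon on a log axis, as mean ± SD of 2 libraries a group. Grem1 moves from 64.8 CPM per kb in Veh (blue) to 4.43 in NRRA (orange), while Crim1, Twsg1, Chrdl1 and Chrdl2 stand higher in NRRA.

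The 3 ligands that gremlin 1 binds differed from each other in their course. Bmp2 is on the plus strand of chromosome 2 (ENSMUSG00000027358, 133552159 to 133562885). It was counted 400 and 408 times in Veh and 149 and 167 times in NRRA, which is 14.7 and 13.7 CPM against 4.57 and 5.54 CPM. The groups did not overlap, and the mean of 14.2 ± 0.732 CPM in Veh compared with 5.06 ± 0.687 CPM in NRRA (SD, n = 2). The log2 fold change was -1.49 (SE 0.12).

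Bmp4 is on the minus strand of chromosome 14 (ENSMUSG00000021835, 46383520 to 46390669). Its counts were 133 and 142 in Veh against 154 and 147 in NRRA. Its levels of 4.90 and 4.77 CPM in Veh and 4.72 and 4.88 CPM in NRRA overlapped, with a log2 fold change of -0.01 (SE 0.15). The SE allows a difference of either sign, and the sign changed with the scaling and with the libraries used. On the opposite strand, Gm15217 overlaps 4.0% of its exon bases.

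Bmp7, the most abundant of the 3 ligands, is on the minus strand of chromosome 2 (ENSMUSG00000008999, 172868012 to 172940321). Its level was 38.7 and 37.1 CPM in Veh and 35.1 and 35.9 CPM in NRRA. Both NRRA libraries were below both Veh libraries, but the difference was small, with a log2 fold change of -0.09 (SE 0.059) that was not called.

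Per kb, the 3 ligands together were at 15.9 and 15.2 CPM per kb in Veh and at 12.1 and 12.7 CPM per kb in NRRA. Bmp7 held 60.5% ± 0.243 of this sum in Veh and 71.3% ± 1.05 in NRRA (SD, n = 2). Grem1 stood at 3.92 and 4.42 times the summed ligands in Veh and at 0.365 and 0.350 times in NRRA, a ratio that was 11.7-fold lower. In transcript levels per length, the antagonist was thus above its 3 ligands in both Veh libraries and below them in both NRRA libraries. The ratio is of RNA in the mixed culture and not of secreted protein.

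Among 11 other BMP ligands, 6 passed the filter on low counts, 3 rose, none fell, and the median log2 fold change was 0.30. Bmp6, the highest of them per length in NRRA and next to Bmp8b in Veh, rose from 9.50 and 8.86 CPM to 18.6 and 17.6 CPM (0.98, SE 0.097, adjusted p = 2.29e-09). Of its exon bases, 5.7% overlap Txndc5 on the opposite strand. Gdf6 rose on counts near the floor, from 0.295 and 0.571 CPM to 1.63 and 0.597 CPM (1.35, SE 0.47, adjusted p = 0.0165). NRRA replicate 2 lay beside the Veh libraries, and the value fell to 0.45 without NRRA replicate 1 (adjusted p = 0.61) and to 0.97 without Veh replicate 1 (adjusted p = 0.0779). DESeq2 did not call it (adjusted p = 0.127). Bmp8a rose from 2.95 and 3.05 to 4.63 and 3.55 CPM (0.45, SE 0.19, adjusted p = 0.0423), a call that was lost without Veh replicate 1 (adjusted p = 0.108), Veh replicate 2 (0.0624) or NRRA replicate 1 (0.417) and with DESeq2 (0.256). Of the longest transcripts of Bmp8a and Bmp8b, 14.2% and 11.6% are near-identical to Gm17244, and genes on the opposite strand overlap 12.2% of the exon bases of Bmp8b, so their counts are uncertain. Adding Bmp6, Bmp8a and Bmp8b to the 3 ligands gave a Grem1 ratio of 2.84 and 3.10 in Veh and 0.202 and 0.207 in NRRA.

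Receptors and co-receptors moved in both directions. Of 12 listed genes 11 passed the filter, 6 fell, 3 rose, and the median was -0.31. Bmpr1a, the type I receptor with the highest level per length of the list, fell from 26.1 to 19.3 CPM per kb (-0.44, SE 0.034, adjusted p = 2.69e-11). Bmpr1b, the other main BMP type I receptor, fell from 5.08 and 4.90 to 3.77 and 3.32 CPM (-0.49, SE 0.16, adjusted p = 0.0124), a call that was lost without NRRA replicate 2 (adjusted p = 0.0923) and with DESeq2 (0.15). Acvrl1, the endothelial type I receptor also called ALK1, fell from 25.8 and 24.5 to 11.6 and 11.2 CPM (-1.14, SE 0.084, adjusted p = 7.63e-12).

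None of the 3 listed type II receptors was called lower. Acvr2b, which binds activins and BMPs, rose from 45.5 and 44.1 CPM to 68.9 and 72.3 CPM (0.66, SE 0.050, adjusted p = 1.32e-11). Bmpr2, the BMP type II receptor, had 91.3 and 96.1 CPM in Veh and 101 and 95.5 CPM in NRRA, which overlapped (0.07, SE 0.041, adjusted p = 0.173). Bambi, a pseudoreceptor that lacks a kinase and dampens signalling, rose from 6.15 and 5.87 to 9.88 and 8.43 CPM (0.61, SE 0.13, adjusted p = 0.000236). Rgmb, a BMP co-receptor, rose from 57.2 and 57.4 to 74.0 and 73.2 CPM (0.36, SE 0.045, adjusted p = 1.38e-07).

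Among 10 SMADs and regulators of SMADs other than Smad6 and Smad7, all 10 passed the filter, 4 rose, 4 fell, and the median was 0.07. The receptor-activated SMADs of the BMP branch moved apart. Smad1 rose from 39.5 and 36.5 CPM to 54.2 and 54.1 CPM (0.51, SE 0.055, adjusted p = 1.13e-08). Smad5 fell from 104 and 103 to 72.9 and 70.8 CPM (-0.53, SE 0.040, adjusted p = 1.36e-11). Per kb, Smad5 stood at 2.23 and 2.39 times Smad1 in Veh and at 1.13 and 1.10 times in NRRA. Smad9 was low and overlapped between groups (0.06, SE 0.25, adjusted p = 0.853). The common partner Smad4 had 84.5 and 87.1 CPM in Veh and 90.5 and 90.3 CPM in NRRA (0.07, SE 0.040, adjusted p = 0.116).

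Of the regulators, Zfp423, a zinc finger partner of SMAD1 and SMAD4, rose by the most (0.87, SE 0.072, adjusted p = 8.81e-11). The corepressor genes Skil and Ski moved apart. Skil rose from 156 and 160 CPM to 226 and 212 CPM (0.47, SE 0.034, adjusted p = 4.3e-12). Ski, the most abundant of this list per length, fell from 86.9 to 64.6 CPM per kb (-0.43, SE 0.025, adjusted p = 6.57e-14). Lemd3, an inner nuclear membrane protein that binds SMADs, also fell (-0.46, SE 0.045, adjusted p = 1.73e-09).

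The 2 inhibitory SMADs of the group differed in direction. Smad6, which acts mainly on the BMP branch, is on the minus strand of chromosome 9 (ENSMUSG00000036867, 63953076 to 64022059). It was counted 997 and 1063 times in Veh and 1506 and 1371 times in NRRA, which is 36.7 and 35.7 CPM against 46.2 and 45.5 CPM. Both NRRA libraries were above both Veh libraries, with a log2 fold change of 0.34 (SE 0.056), and Smad6 was the only gene of the 9 called higher.

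Smad7, which inhibits both the BMP and the TGF-β branch, is on the plus strand of chromosome 18 (ENSMUSG00000025880, 75367529 to 75395935). Its counts were 2054 and 2412 in Veh against 1132 and 982 in NRRA. Its level was 75.6 and 81.0 CPM in Veh and 34.7 and 32.6 CPM in NRRA, with no overlap and a log2 fold change of -1.22 (SE 0.053). Per kb, Smad7 was at 1.46 and 1.61 times Smad6 in Veh and at 0.533 and 0.508 times in NRRA, so their order was the reverse in the 2 groups.

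The Id genes were lower in NRRA to different degrees. Id3 is on the plus strand of chromosome 4 (ENSMUSG00000007872, 136143497 to 136145755) and was counted 1829 and 1882 times in Veh and 1127 and 1138 times in NRRA. Its level was 67.4 and 63.2 CPM in Veh and 34.6 and 37.8 CPM in NRRA, without overlap, with a log2 fold change of -0.85 (SE 0.056). Id1, on the plus strand of chromosome 2 (ENSMUSG00000042745, 152736251 to 152737410), was counted 1064 and 1170 times in Veh and 877 and 830 times in NRRA. This was 39.2 and 39.3 CPM against 26.9 and 27.5 CPM, without overlap, and a log2 fold change of -0.53 (SE 0.062). Id2, the lowest of the 3, is on the minus strand of chromosome 12 (ENSMUSG00000020644, 25093799 to 25097140). Its counts of 136 and 159 in Veh and of 138 and 119 in NRRA equal 5.01 and 5.34 CPM against 4.23 and 3.95 CPM. Both NRRA libraries were below both Veh libraries, but the log2 fold change of -0.34 (SE 0.16) was not called.

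Among 6 further BMP targets, 5 passed the filter, 4 fell, none rose, and the median was -1.76. Id4, a gene of undifferentiated spermatogonia and the fourth Id gene, fell from 37.3 and 38.0 CPM to 3.83 and 3.72 CPM (-3.32, SE 0.094, adjusted p = 1.56e-20). It is also on the list of undifferentiated spermatogonia markers, and it is the Id gene with the lowest fold change. Msx2, a homeobox gene with the highest level per length of this list in NRRA and next to Id4 in Veh, fell from 31.1 and 29.6 to 8.40 and 9.59 CPM (-1.76, SE 0.087, adjusted p = 2.24e-15). Its relative Msx1 fell from 2.69 and 2.45 to 0.767 and 0.730 CPM (-1.77, SE 0.28, adjusted p = 5.18e-06). Atoh8, a basic helix-loop-helix gene, fell from 14.5 and 15.9 to 5.37 and 6.77 CPM (-1.33, SE 0.12, adjusted p = 3.34e-10). Hey1 had 5.34 and 6.34 CPM in Veh and 4.60 and 5.04 CPM in NRRA and did not pass the test (-0.28, SE 0.15, adjusted p = 0.115). Dlx5, with 5 to 8 counts a library, was not tested.

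Per kb, Id1 to Id4 together were at 83.1 and 81.2 CPM per kb in Veh and at 45.2 and 47.4 CPM per kb in NRRA. The makeup of this sum differed too. Id4 held 11.7% and 12.2% in Veh and 2.20% and 2.04% in NRRA, and Id1 held 40.6% and 41.7% in Veh and 51.3% and 50.1% in NRRA. The share of Id3 overlapped between groups, at 45.2% and 43.4% in Veh and 42.7% and 44.5% in NRRA. Without Id4, the mean sum was 72.4 CPM per kb in Veh and 45.3 CPM per kb in NRRA.

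**Figure D3:**
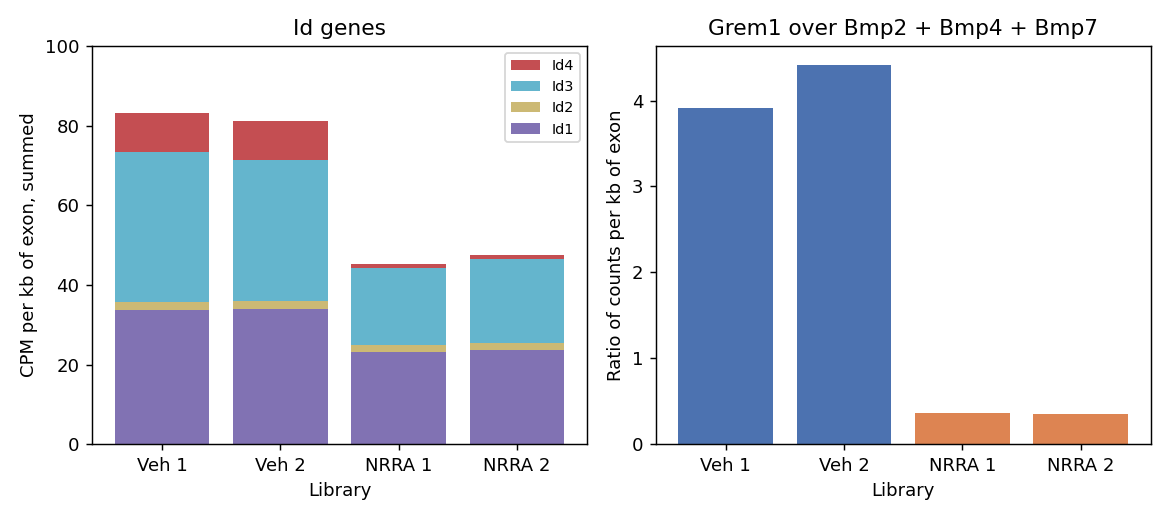
Left, stacked CPM per kb of Id1, Id2, Id3 and Id4 in each library. Right, Grem1 over the sum of Bmp2, Bmp4 and Bmp7, as a ratio of counts per kb. The stacks are 83.1 and 81.2 CPM per kb in Veh and 45.2 and 47.4 in NRRA, and the ratio is 3.92 and 4.42 in Veh and 0.365 and 0.350 in NRRA.

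The E proteins that ID proteins bind differed little. Tcf3, the most abundant of them at 106 CPM per kb in Veh and 105 in NRRA, overlapped between groups and did not pass the test (-0.01, SE 0.026, adjusted p = 0.807). Tcf12 fell from 186 and 181 CPM to 156 and 158 CPM (-0.22, SE 0.031, adjusted p = 8.36e-07). Tcf4 fell from 65.4 and 67.4 to 57.4 and 59.1 CPM (-0.19, SE 0.047, adjusted p = 0.00108). With scaling to library size only, the call of Tcf4 was lost (-0.10, adjusted p = 0.0689) and Tcf3 was called higher (0.08, adjusted p = 0.00932).

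In order of level per kb, the 9 genes in Veh were Grem1, Id3, Id1, Smad7, Smad6, Bmp7, Bmp2, Bmp4 and Id2. Of neighbours in this order, only Bmp4 at 2.15 ± 0.0413 and Id2 at 2.12 ± 0.0954 CPM per kb (SD, n = 2) differed by less than the sum of their SDs. In NRRA the order was Id1, Id3, Smad6, Bmp7, Smad7, Grem1, Bmp4, Id2 and Bmp2. There, only Id2 at 1.68 ± 0.0824 and Bmp2 at 1.42 ± 0.193 CPM per kb differed by less than that. Id1 at 23.5 ± 0.391 CPM per kb was then above Id3 at 20.2 ± 1.26 CPM per kb, and Grem1 had moved from the top to between Smad7 and Bmp4.

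**Figure D4:**
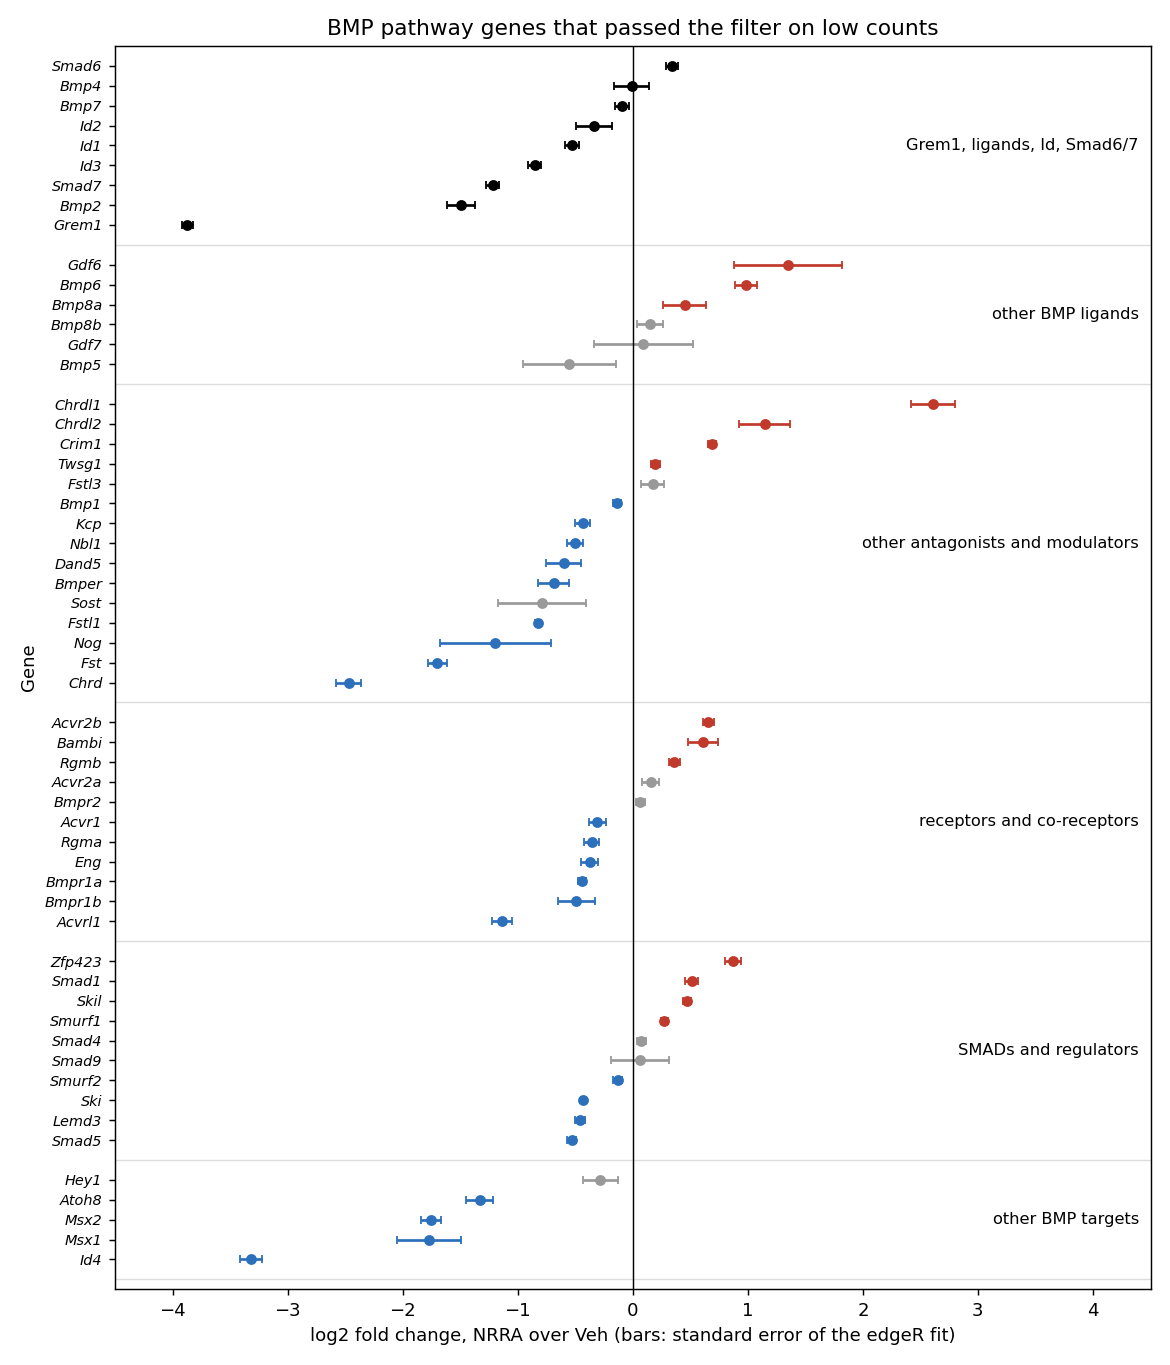
Log2 fold change, NRRA over Veh, of the 9 genes and of the other tested genes analysed from 5 BMP lists, with the standard error of the edgeR fit as bars. Red and blue points passed the test as higher or lower, and grey points did not. Black points are the 9 genes, for which no p-value is given. Grem1 at -3.87 is the lowest value shown, followed by Id4 at -3.32 and Chrd at -2.47.

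Over the 56 other BMP genes analysed from the lists of ligands, antagonists, receptors, SMADs and targets, 47 passed the filter, 14 rose and 23 fell, with a median of -0.28. With scaling to library size only, 18 rose and 20 fell. Of all genes tested, 27.9% rose and 28.4% fell. The lists were written from textbook roles, with earlier results of these libraries known. Feeder and undifferentiated spermatogonia markers were both lower in NRRA, as given above, and their part in these counts was not tested.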

How the data were processed

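The authors deposited raw counts per gene for 4 libraries of poly(A) RNA. The submitters' processing notes name bcl2fastq, STAR 2.6.1c, featureCounts 1.6.4 and mm10. The annotation and the strand setting are not given in the sources used here, and the library kit differs between the labels (TruSeq) and the methods (Tecan, stranded), so overlap with other genes above 5% of the exon bases is given for the named genes of the lists. Columns were matched to samples by description. The Veh titles carry numbers 1 and 2, and their descriptions 2 and 3. No entry lacked a gene.

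Counts were filtered with filterByExpr, scaled with TMM and tested with edgeR 4.0.16 (R 4.3.3; quasi-likelihood F test, robust), with group as the only term. P-values were adjusted by Benjamini-Hochberg over 20232 genes, with a threshold of 0.05. The study used DESeq2, which was an alternative here (1.42.0). SEs come from the F statistic. Log2 CPM for the search for similar genes had a prior count of 2. CPM per kb is CPM over the merged exon length in GENCODE M21 (GRCm38), which held 99.5% of the gene identifiers. Near-identical sequence was searched with BLAST 2.17.0 (at least 95% over 100 bases). The code was tested on simulated counts. The common biological coefficient of variation was 2.61%, and within groups Pearson's r of log2 CPM across genes was 0.993 and 0.994. The libraries of a group differed by more than sampling noise (chi-square per degree of freedom 2.45 and 1.99) and were all kept.

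The 9 genes, the pathway lists and the marker lists were chosen with earlier results of these data known. The text names all 9 genes. In each pathway list it names up to 3 called genes at each end of the fold changes and the gene with the highest level per kb over the 4 libraries, and in each marker list both ends. It also names the 5 genes nearest Grem1. Of the antagonist list, 1 gene is not reported here and is left out of its counts. Other genes of the lists were added after their values were seen: Nbl1, Bmp1, Twsg1, Bmpr2, Smad4, Smad9, Hey1, Inhba, Zbtb16, Acta2, Star, Dlx5, Ddx4, Bmp8b, Amh, Insl3, Hsd3b1 and Cldn11. Wt1, S100a4, Lhx1, Bmper, Dand5 and Kcp were also added in this way. Alternatives were library size only, RLE factors, no filter, a stricter filter, no robust estimation, the replicate number as a block, each library left out and DESeq2.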

Additional observations from a re-analysis of the deposited data

How the results depend on the processing

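Of the 9 genes, 1 was called higher and 5 lower under each of the 11 alternatives. Grem1 ranged from -3.92 to -3.78 in log2 fold change. The near-0 value of Bmp4 turned to 0.080 with library size only, 0.0088 without Veh replicate 1 and 0.018 without NRRA replicate 1 (from -0.033 to 0.018 with each library left out), and that of Bmp7 came to -0.0025 with library size only, which shifted the median of all genes by 0.0897. That setting called 6962 genes higher and 4593 lower (60.3% higher, against 49.6% with TMM) and turned Tcf3 to 0.081. It called 5 receptors higher, against 3, and 25 of the 76 pathway genes higher and 25 lower, against 20 and 29. It moved the log2 ratio of summed markers from -0.215 to -0.125 for feeders, from 0.101 to 0.191 for germ cells, from -1.34 to -1.25 for undifferentiated and from 3.32 to 3.41 for differentiating spermatogonia. Among the other ligands, 1 was called higher, against 3, with DESeq2, without Veh replicate 1 or without NRRA replicate 1. DESeq2 called 4252 genes higher and 4314 lower. With each library left out in turn, 4996 to 5266 genes were called higher and 5093 to 5351 lower, and among the pathway genes 17 to 20 higher and 27 to 29 lower. Promoter windows of 100 bases held GGCGCC in 1 of the 5 genes (2 at 250 bases), CAGAC in 1 (2) and AGGTCA in 0 (1). Titles number libraries 1 and 2 in both groups, but the same-number deviations had a correlation of 0.0294 over 11324 genes, and nothing else pairs them. With the replicate block, 5772 genes were called higher and 5836 lower, with 1 and 5 of the 9 genes. The cause of these shifts was not tested.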

Other observations

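The TGF-β and activin branch of the same family signals through SMAD2 and SMAD3. Of 17 listed genes 13 passed the filter on low counts, 6 rose and 4 fell in NRRA, with a median log2 fold change of -0.0043 beside 0.0003 for all genes. The 3 TGF-β ligands moved apart. Tgfb2 rose from 7.77 and 7.62 CPM in Veh to 31.5 and 31.9 CPM in NRRA (2.04, SE 0.085, edgeR adjusted p = 6.07e-17), and Tgfb3 rose from 14.9 and 15.9 to 23.0 and 22.8 CPM (0.57, SE 0.080, adjusted p = 8.48e-07). Other genes overlap 12.4% of the exon bases of Tgfb3 on the opposite strand. Tgfb1 fell from 76.2 and 71.4 to 33.4 and 30.9 CPM (-1.20, SE 0.055, adjusted p = 4.83e-16).

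The activin subunit genes both fell. Inhba went from 91.2 and 98.8 CPM to 43.2 and 41.0 CPM (-1.17, SE 0.050, adjusted p = 8.44e-17), and Inhbb from 94.1 and 92.1 to 38.1 and 38.6 CPM (-1.28, SE 0.047, adjusted p = 3.61e-18). Inha, the inhibin subunit, rose (0.53, SE 0.19, adjusted p = 0.0178), a call that was lost without Veh replicate 1 (adjusted p = 0.0894), without NRRA replicate 1 (0.192) and with DESeq2 (0.165). Gdf3, a germ cell ligand that acts through the activin receptors, had 44 and 47 counts in Veh against 0 in both NRRA libraries, at least 16.7-fold lower with the floor of 3 counts in each NRRA library. Smad3, with the highest level per kb of this list as a mean over all 4 libraries but below Inhbb in Veh and below Smad2 in NRRA, had 101 and 92.6 CPM in Veh and 99.8 and 93.1 CPM in NRRA, which overlapped (adjusted p = 0.945).

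Among the germ cell markers, Tex15 had the highest fold change (0.66, adjusted p = 1.21e-16) and Dppa3 the lowest, with 230 and 244 counts in Veh against 4 and 0 in NRRA. Of the longest transcript of Dppa3, 54% is near-identical to other genes. Among undifferentiated spermatogonia markers, Sall4 was highest (0.84, adjusted p = 1.75e-18), and Nanos2, with 145 and 163 counts in Veh against 0 and 3 in NRRA, was at least 56.5-fold lower. Gm45058 overlaps 49.0% of the exon bases of Nanos2 on the other strand, and Gm14261 9.5% of those of Sall4. Among differentiating spermatogonia markers, Stra8 was highest (7.56) and Dmrtb1 lowest (-0.47, adjusted p = 0.00261), a call that was lost without Veh replicate 1 and with DESeq2. Among testis somatic cell markers, Gata4 was highest (0.48, adjusted p = 0.422) and Sox9, a Sertoli cell gene, lowest (-1.59, adjusted p = 1.38e-14). Of the 11 somatic cell markers 7 passed the filter and 3 fell. Star was called higher, a call that was lost without any 1 of the 4 libraries and with DESeq2.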
